A study of Mus musculus with 4 samples.

Results

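The genes described here are 10 members of the Serpina cluster on mouse chromosome 12: Serpina1a, Serpina1b, Serpina1c, Serpina1d, Serpina1e, Serpina3k, Serpina3m, Serpina3n, Serpina3g and Serpina6. They were taken by symbol from a table of 20642 gene symbols, with the transcript of largest mean promoter-proximal reads over the 4 libraries kept for each symbol, which for these genes meant no choice because each had 1 transcript. Those means ran from 8.59 normalized reads for Serpina1e to 782 for Serpina6. All 10 were among the 12705 active genes, defined by a promoter-proximal density above 0 and a gene body density above 4 normalized reads per kb.

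Nascent transcripts were measured by precision nuclear run-on sequencing (PRO-seq), which maps RNA polymerases engaged on DNA, in C57BL/6 mouse liver at postnatal day 14. The WT group (2 libraries) carried Alb-Cre, a Cre recombinase driven by the albumin promoter and so expressed in hepatocytes, with intact Hdac3. The Hdac3 KO group (2 libraries) carried Alb-Cre with fl/fl or fl/- Hdac3 alleles, so the deletion rests on a driver of hepatocytes and not of the stromal and immune cells that bulk liver also holds. Each library was made from 20000000 liver nuclei pooled from several mice, so the spread between the libraries of a genotype is a spread between pools.

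Serpins are inhibitors that trap their target protease by cleavage of an exposed loop, and the liver secretes many of them into plasma. Serpina1a to Serpina1e are mouse paralogs of alpha-1-antitrypsin, the main plasma inhibitor of neutrophil elastase, and they lie next to each other as recent copies. Serpina3k (contrapsin), Serpina3m and Serpina3n belong to a second expanded group related to antichymotrypsin, and Serpina3n is known as an acute phase gene. Serpina3g (Spi2A) codes for an intracellular inhibitor best known from immune cells. Serpina6 codes for corticosteroid-binding globulin, a serpin without inhibitory activity that carries glucocorticoids in blood.

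The sequences just before the start sites of the 5 Serpina1 genes resemble each other closely, and they are shown because these 5 genes moved the same way. RefSeq promoter sequences (build GRCm38.p6) were at hand for 7 of the 10 genes, all but Serpina3k, Serpina3m and Serpina6. The 5 Serpina1 promoters shared an unbroken run of 55 bases, in capitals below. It ends with the sequence GTTAATATTCACTAGC, whose first 6 bases, GTTAAT, were searched for in all promoters. The lines are written 5′ to 3′ and all are on the minus strand, at chr12:103863625-103863700, chr12:103738200-103738275, chr12:103904962-103905037, chr12:103773634-103773709 and chr12:103956960-103957035 in the order shown.
Serpina1a: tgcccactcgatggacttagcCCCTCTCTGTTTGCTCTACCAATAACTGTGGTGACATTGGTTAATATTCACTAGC
Serpina1b: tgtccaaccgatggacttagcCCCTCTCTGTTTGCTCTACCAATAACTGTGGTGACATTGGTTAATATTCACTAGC
Serpina1c: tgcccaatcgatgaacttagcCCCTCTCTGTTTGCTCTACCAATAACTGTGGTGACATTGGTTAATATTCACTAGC
Serpina1d: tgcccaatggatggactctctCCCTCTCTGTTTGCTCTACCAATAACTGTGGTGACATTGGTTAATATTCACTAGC
Serpina1e: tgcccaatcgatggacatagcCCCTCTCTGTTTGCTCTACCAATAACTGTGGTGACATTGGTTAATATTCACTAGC

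Over these 76 bases the 10 pairs of Serpina1 genes differed at 2 to 7 positions, an identity of 90.8% to 97.4%. The differences all lay in the lower case part, and Serpina1d differed most from the others. GTTAAT, read on both strands, occurred in the 250 bases before the start of 6.43% of the 32851 promoters in the table. It began 21 bases before the RefSeq start of Serpina1a, 26 before Serpina1b, 27 before Serpina1c, 16 before Serpina1d and 78 before Serpina1e. The GENCODE M21 starts of Serpina1a, Serpina1b, Serpina1c and Serpina1d lie further downstream (103863555 for Serpina1a). Differences in distance between the genes thus depend on the annotation.

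Serpina3n and Serpina3g moved in opposite directions, so their promoters are shown side by side, aligned on the longest run they share within 250 bases of the start, which is 10 bases long and in capitals. Both are on the plus strand, at chr12:104406528-104406617 and chr12:104236057-104236146.
Serpina3n: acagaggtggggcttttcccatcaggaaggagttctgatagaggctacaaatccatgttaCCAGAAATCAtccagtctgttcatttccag
Serpina3g: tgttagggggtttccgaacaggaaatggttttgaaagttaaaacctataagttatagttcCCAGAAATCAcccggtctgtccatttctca

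These 90-base stretches were 67.0% identical in a global alignment. Neither promoter held GTTAAT on either strand. TTCNNNGAA, the spacing recognised by STAT factors, was found in Serpina3g but in none of the other 6 promoters, against 7.02% of all promoters. TTGCNNAA, a relaxed pattern of the C/EBP site, was found in Serpina1b, Serpina1d and Serpina1e (9.56% of all promoters). AGAACA, the glucocorticoid receptor half-site, was found in every one of the 7 but Serpina3g (16.1%). TATAAA was found in none of the 7 (12.4%). The motifs were chosen after the promoters had been read, and a match describes letters and not a bound site. Matches in the Serpina1 promoters are not independent of each other, because these promoters are close copies. Serpina6, which rose like Serpina3g, had no promoter sequence to compare.

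Library facts bear on what follows. Reads on genes numbered 16628518 to 26190040 per library, fewest in KO replicate 2, and the deposited values are scaled by total reads. The promoter-proximal share of reads was 9.38% and 10.3% in WT and 13.6% and 17.0% in KO, and the log2 fold changes of the active genes had a median of 0.56 in promoter-proximal windows and -0.09 in gene bodies. Promoter-proximal changes are therefore also given relative to that median. The gene body of Hdac3, the targeted gene, held 665 and 648 normalized reads in WT and 609 and 582 in KO (log2 fold change -0.14 ± 0.13 SE, adjusted p = 0.413 in limma), and since that count spans the whole gene, deleted part or not, it checks neither the deletion nor the labels. Throughout, p-values come from limma on log2(normalized reads + 1) over all active genes with Benjamini-Hochberg adjustment, fold changes are on that scale, and a call needs both an adjusted p below 0.05 and a log2 fold change beyond 0.6 in either direction.

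In gene bodies, where polymerases elongate, 8 of the 10 genes fell in the Hdac3 KO and 2 rose. The 5 Serpina1 genes and Serpina3k, Serpina3m and Serpina3n fell, while Serpina3g and Serpina6 rose. In the background of all 12705 active genes, 11.4% were called lower and 10.4% higher. The median log2 fold change of the 10 genes was -1.47. For each of the 10 genes both KO libraries lay outside the range of the WT libraries, 8 below and 2 above it, which was also so for 70.5% of all active genes (42.8% below and 27.6% above). The genes were picked with these results known, so the counts describe the cluster and are no test of it. Because liver was measured in bulk, fewer hepatocyte nuclei and less transcription per hepatocyte cannot be told apart.

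**Figure D1:**
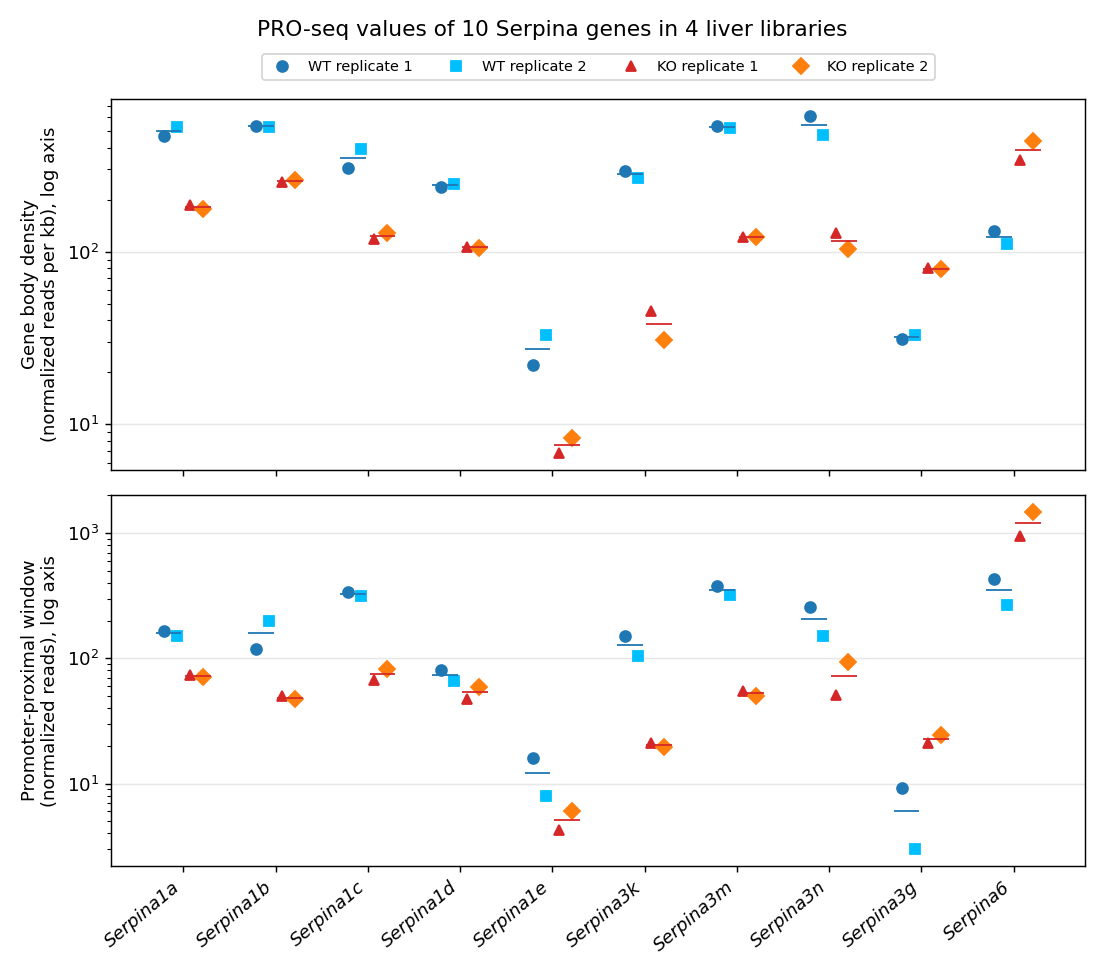
Values of the 10 genes in each of the 4 libraries, with gene body density in normalized reads per kb above and promoter-proximal normalized reads below, both on log axes; short lines are the means of the 2 WT or the 2 KO libraries. The 8 genes from Serpina1a to Serpina3n sit lower in KO and Serpina3g and Serpina6 sit higher, with no overlap between genotypes in either region, as for 70.5% of all active genes in the gene body and 68.6% in the promoter-proximal window.

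Among the alpha-1-antitrypsin paralogs, Serpina1a held 4372 and 4877 normalized gene body reads in the WT libraries and 1742 and 1640 in the KO libraries. Its log2 fold change was -1.45 ± 0.11 (SE, adjusted p = 4.56e-10), a level 2.74-fold lower. Serpina1b, at 4846 and 4783 reads in WT and 2272 and 2341 in KO, changed by -1.06 ± 0.11 (adjusted p = 2.98e-08). The KO libraries agreed closely for both genes, and the gap between genotypes was several times the gap within them.

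Serpina1c held 2762 and 3526 reads in WT and 1066 and 1149 in KO, a log2 fold change of -1.49 ± 0.12 (adjusted p = 1.46e-09). Serpina1d held 2155 and 2227 reads in WT and 966 and 955 in KO (-1.19 ± 0.11, adjusted p = 1.35e-08). Serpina1e was the weakest of the 5 genes, with 197 and 295 reads in WT and 61.5 and 74.4 in KO (-1.82 ± 0.22, adjusted p = 4.50e-07). Its WT libraries differed by a larger ratio than those of any other Serpina1 gene.

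The 5 Serpina1 genes are so alike that single reads can fit several of them. Of the 30-base windows in their spliced transcripts, 57.7% (Serpina1e) to 82.7% (Serpina1c) occurred exactly in the transcript of another gene, mostly another Serpina1 gene, so the split between paralogs is uncertain. Introns, which make up most of these gene bodies, could not be compared here. The sum over the 5 genes does not depend on that split, apart from reads dropped as ambiguous. It was 14333 and 15708 normalized gene body reads in WT and 6108 and 6160 in KO, 2.45-fold lower, a value computed after the single genes had been seen.

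The makeup of that sum shifted little beside its fall. Serpina1b made up 33.8% and 30.4% of it in WT and 37.2% and 38.0% in KO. Serpina1a made up 30.5% and 31.0% in WT and 28.5% and 26.6% in KO. Shares of Serpina1c (17.5% to 22.4%) and Serpina1d (14.2% to 15.8%) lay in narrow ranges, and Serpina1e took 1.01% to 1.88%. These shares were not tested, since with 2 libraries a group an exact two-sided permutation test cannot go below p = 0.333.

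The 3 falling Serpina3 genes had lower log2 fold changes than the Serpina1 genes, although Serpina3m and Serpina1e differed by little more than their SEs. Serpina3k, the mouse contrapsin gene, held 1822 and 1675 reads in WT and 285 and 193 in KO. Its log2 fold change of -2.89 ± 0.15 (adjusted p = 3.73e-12) was the 19th lowest of the 12705 active genes, a level 7.31-fold lower. Serpina3m held 3240 and 3153 reads in WT and 744 and 741 in KO (-2.10 ± 0.11, adjusted p = 3.73e-12).

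Serpina3n, the acute phase member, held 4041 and 3143 reads in WT and 845 and 682 in KO, a log2 fold change of -2.23 ± 0.13 (adjusted p = 1.49e-11). Over Serpina3k, Serpina3m and Serpina3n together, 9103 and 7971 reads in WT compared with 1874 and 1615 in KO, 4.89-fold lower. These 3 genes share fewer windows with other genes than the Serpina1 paralogs do (22.6% for Serpina3n, 25.0% for Serpina3k and 36.0% for Serpina3m).

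Serpina6, the corticosteroid-binding globulin gene, moved the other way. It held 1249 and 1043 reads in WT and 3198 and 4122 in KO, 3.19-fold higher. The log2 fold change of 1.67 ± 0.13 (adjusted p = 5.34e-10) was the 74th highest of the active genes. None of its 30-base exonic windows occurred in the transcript of another gene.

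Serpina3g, the Spi2A gene, held 827 and 864 reads in WT and 2111 and 2095 in KO (log2 fold change 1.31 ± 0.11, adjusted p = 3.51e-09). The deposited gene body of Serpina3g is 26391 bp long, whereas GENCODE M21 gives its transcript 5688 bp. Laid out from the annotated start it covers all of Serpina3h, a transcribed pseudogene, and the first bases of Serpina3i, both on the same strand. With the reads counted for Serpina3h taken away, Serpina3g kept 677 and 682 reads in WT and 1744 and 1735 in KO, 2.56-fold higher. The reads taken away leave out the first 1 kb of Serpina3h and the first bases of Serpina3i. Part of the remaining reads may still belong to these or to the stretch between the genes. The values are thus those of a span and not of Serpina3g alone. Of the 30-base windows in the spliced Serpina3g transcript, 31.2% occurred in the transcript of another gene.

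Per kb of gene body, the order of the 10 genes changed between genotypes. In WT the 4 highest were Serpina3n (542 ± 95.9 normalized reads per kb, SD, n = 2), Serpina1b (533 ± 4.96), Serpina3m (525 ± 10.1) and Serpina1a (496 ± 38.3), whose library ranges overlapped from each to the next. Below them came Serpina1c (348 ± 59.9), Serpina3k (280 ± 16.6), Serpina1d (242 ± 5.65) and Serpina6 (121 ± 15.5), each apart from its neighbours. Serpina3g (32.0 ± 0.985, over its long span) and Serpina1e (27.5 ± 7.70) overlapped at the bottom.

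In KO Serpina6 stood first at 388 ± 69.2 normalized reads per kb, above Serpina1b (255 ± 5.40) and Serpina1a (181 ± 7.74). Serpina1c (123 ± 6.52), Serpina3m (122 ± 0.312), Serpina3n (115 ± 17.5) and Serpina1d (106 ± 0.889) followed, with each range overlapping the next. Serpina3g (79.7 ± 0.422) lay above Serpina3k (38.2 ± 10.5) and Serpina1e (7.58 ± 1.02). Serpina3n thus went from the first to the sixth place and Serpina6 from the eighth to the first.

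Summed over the 10 genes, gene body reads made up 0.109% and 0.108% of all gene body reads in the WT libraries and 0.0603% and 0.0668% in the KO libraries. The sum of normalized reads was 25549 ± 52.3 (SD, n = 2) in WT and 13642 ± 496 in KO, 1.87-fold lower, so the rises of Serpina6 and Serpina3g made up part of the loss.

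In promoter-proximal windows, the 50 bp near each start site with the most reads, 6 of the 10 genes fell, 2 rose and 2 were not called. Over all active genes 2.2% were called lower and 25.8% higher. The genes called lower were Serpina1a, Serpina1b, Serpina1c, Serpina3k, Serpina3m and Serpina3n, and those called higher were Serpina3g and Serpina6. Both KO libraries lay below the WT libraries for 8 genes and above them for 2, against 6.72% and 61.9% of all active genes. The median log2 fold change of the 10 genes was -1.31, beside 0.56 over all active genes. Relative to 0.56, changes were -3.11 for Serpina3k, -2.68 for Serpina1c, -2.20 for Serpina1b, -2.07 for Serpina3n, -1.67 for Serpina1a and 1.33 for Serpina3g. When each region was scaled by its own median of ratios, which sets that shift aside, Serpina1d and Serpina1e were also called lower, making 8 lower and 2 higher, and calls over all active genes became 634 higher and 942 lower in place of 3282 higher and 280 lower.

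Serpina3m held 380 and 319 normalized promoter-proximal reads in WT and 55.2 and 50.1 in KO. That is a log2 fold change of -2.70 ± 0.33 (adjusted p = 1.36e-12), or -3.26 relative to the median of all active genes. Serpina3k, at 150 and 104 reads in WT and 21.2 and 19.7 in KO, changed by -2.55 ± 0.38 (adjusted p = 6.99e-09). Serpina1c held 336 and 313 reads in WT and 66.8 and 82.0 in KO (-2.12 ± 0.33, adjusted p = 4.31e-08). For these 3 genes the genotypes lay far apart, although the WT libraries of Serpina3k differed by a larger ratio than those of Serpina3m or Serpina1c.

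Serpina1b held 119 and 197 reads in WT and 49.9 and 47.1 in KO (-1.64 ± 0.35, adjusted p = 0.000115). Serpina3n held 259 and 152 reads in WT and 50.9 and 94.1 in KO (-1.51 ± 0.34, adjusted p = 0.000265), so both its genotypes were uneven. Serpina1a held 166 and 151 reads in WT and 74.3 and 71.4 in KO (-1.11 ± 0.34, adjusted p = 0.00951). Of the 6 falling genes, these 3 lost their calls when single libraries were left out. The adjusted p of Serpina1a was 0.203 without WT replicate 1, 0.18 without WT replicate 2 and 0.0762 without KO replicate 2. That of Serpina1b was 0.159 without WT replicate 2 and 0.0519 without KO replicate 2, and that of Serpina3n 0.173 without WT replicate 1 and 0.0515 without KO replicate 1.

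Serpina1d and Serpina1e were lower in both KO libraries without passing the threshold. Serpina1d held 81.5 and 66.0 reads in WT and 47.7 and 59.2 in KO (-0.46 ± 0.37, adjusted p = 0.323). Serpina1e had too few reads for a firm value, with 14 and 8 raw reads in WT and 4 in each KO library (-1.02 ± 0.49, adjusted p = 0.0933). Relative to the median of all active genes their log2 fold changes were -1.02 and -1.59.

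Serpina6 held 434 and 268 promoter-proximal reads in WT and 954 and 1471 in KO (1.79 ± 0.29, adjusted p = 1.67e-07, 1.23 relative to the median). Serpina3g rested on few reads, 8 and 3 raw reads in WT and 20 and 16 in KO (1.89 ± 0.47, adjusted p = 0.000903). Without WT replicate 2 the adjusted p of Serpina3g was 0.196 and without KO replicate 2 it was 0.0975, so its promoter-proximal call leaned on single libraries while its gene body call did not.

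**Figure D2:**
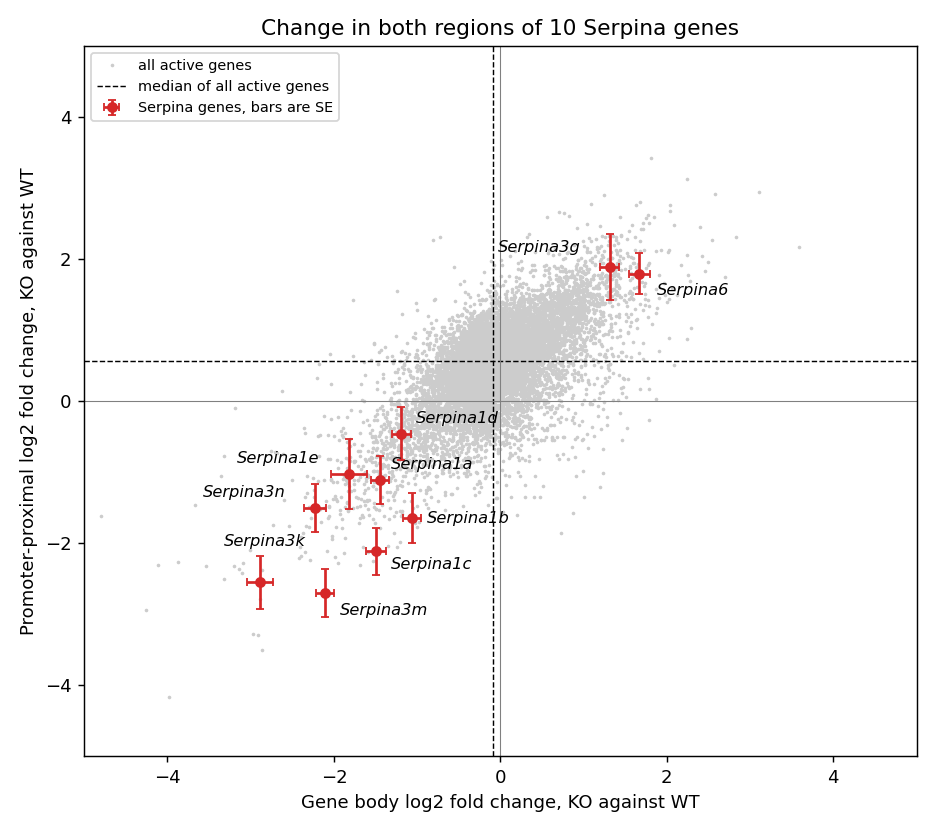
Log2 fold change (KO against WT) in the gene body on the horizontal axis and in the promoter-proximal window on the vertical axis; red points are the 10 genes with SE bars, grey points all 12705 active genes, and dashed lines the medians of all active genes (-0.09 and 0.56). The 8 falling genes lie in the lower left and Serpina3g and Serpina6 in the upper right.

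For none of the 10 genes was a change called in the pausing index, which divides the density near the start by that of the gene body. Over all active genes 11.2% were called higher and 0.543% lower. At an unadjusted p under 0.05 in limma the counts were 4278 higher and 159 lower over all active genes, and 0 of the 10. Serpina6 had the highest index of the 10, at 65.5 and 48.5 in WT and 56.3 and 67.4 in KO, and its log2 change was 0.13 ± 0.38 (adjusted p = 0.805). Serpina1b had the lowest in KO, at 4.45 and 7.44 in WT and 3.96 and 3.63 in KO (-0.58 ± 0.44, adjusted p = 0.31). Serpina6 reads were thus concentrated near the start in all 4 libraries, and those of Serpina1b much less so.

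Serpina1c and Serpina3m, which had the next highest indices in WT, had lower mean indices in KO, without a call. Serpina1c went from 22.0 and 16.0 to 11.3 and 12.9 (log2 change -0.62 ± 0.41, adjusted p = 0.243), and Serpina3m from 14.3 and 12.3 to 9.04 and 8.24 (-0.60 ± 0.40, adjusted p = 0.259). Serpina1d was higher, from 6.84 and 5.36 to 8.94 and 11.2 (0.73 ± 0.42, adjusted p = 0.192). With SEs of 0.38 to 0.47 log2 units, changes of this size were not detectable with these libraries. Signs of the index change of Serpina1a, Serpina3k, Serpina3g and Serpina6 turned under other scalings and carry no direction.

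**Figure D3:**
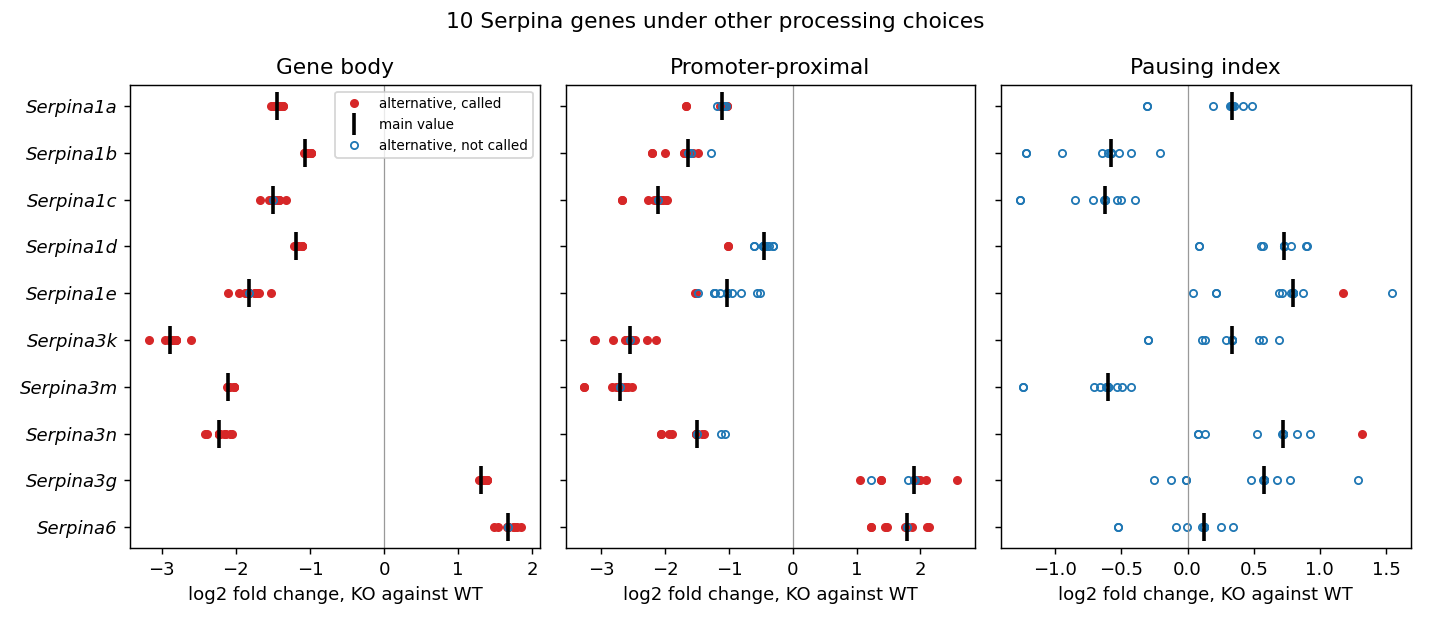
Log2 fold change (KO against WT) of each gene in the gene body, the promoter-proximal window and the pausing index; the black tick is the value given in the text and each circle the value under another processing choice, filled red where called and open blue where not. Gene body values stay in narrow ranges on 1 side of 0, whereas pausing index values of Serpina1a, Serpina3k, Serpina3g and Serpina6 lie on both sides.

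Along the chromosome the cluster runs over 799544 bp from Serpina10 to Serpina3n (GRCm38, GENCODE M21) and holds 28 annotated Serpina genes and pseudogenes, of which 23 were in the table and 14 active. Of those 14, 10 fell and 4 rose in the gene body, and the sign changed 4 times along the chromosome. Serpina10 fell, Serpina6 next to it rose, the Serpina1 genes and Serpina11 fell, Serpina3g, Serpina3h and Serpina3i rose, and Serpina3k, Serpina3m and Serpina3n fell. Genes that rose and genes that fell occurred on both strands. Serpina6 lies at 103646630 to 103657212 on the minus strand and its nearest falling member, Serpina1b, at 103728156 to 103738158. On the plus strand the start of Serpina3k at 104338486 follows the end of Serpina3g at 104241939.

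Within the Serpina1 side the size of the fall followed position. From Serpina1b through Serpina1d, Serpina1a, Serpina1c and Serpina1e to Serpina11 the gene body log2 fold change was -1.06, -1.19, -1.45, -1.49, -1.82 and -2.40. Each of the 5 steps went down in 3 of the 4 pairings of a KO with a WT library, and 4 of 5 did in the fourth, KO replicate 2 against WT replicate 1. The 4 pairings share libraries and the order was noticed in these data, so it is given as a description, and single steps of 0.045 to 0.58 log2 units stand beside SEs of 0.11 to 0.22 per gene. In promoter-proximal windows the order did not hold, with -1.64, -0.46, -1.11, -2.12, -1.02 and -1.91 for the same genes.

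Of the 16 other Serpina genes in the list, 14 were in the table and 5 active, and 3 of those rose and 2 fell in the gene body. Serpina11, beside Serpina1e, held 524 and 592 gene body reads in WT and 102 and 108 in KO, and it also fell in the promoter-proximal window (-1.91 ± 0.47, adjusted p = 0.000842). Serpina10, which codes for protein Z-dependent protease inhibitor, fell by 0.80 ± 0.12 on the log2 scale in the gene body (adjusted p = 9.95e-06). Serpina3h and Serpina3i, which follow Serpina3g, rose by 1.13 ± 0.17 and 1.03 ± 0.16. Serpina7, the thyroxine-binding globulin gene on the X chromosome, rose by 1.42 ± 0.19, from 118 and 99.0 reads to 325 and 261. As a carrier of a hormone in plasma, it is like Serpina6 a serpin without inhibitory activity.

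Beyond the cluster, 2 of the 8 active flanking genes fell in the gene body and none rose. Ppp4r4, a phosphatase regulatory subunit gene on the Serpina10 side, held 1099 and 1052 reads in WT and 387 and 381 in KO (-1.48 ± 0.13, adjusted p = 3.54e-09), with no call in its promoter-proximal window. Clmn, beyond the other end, fell by 0.67 ± 0.12. The median gene body log2 fold change of the 8 was -0.06, close to that of all active genes. Dicer1, Glrx5 and the other active flanking genes had no gene body call.

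A single enhancer of the 2282 in the deposited enhancer list lay in the cluster. The authors called intergenic enhancers and by default left out transcripts close to RefSeq genes. Elements near or inside the genes of this cluster could therefore not be listed. It spans 5927 bp at 103818922 to 103824849 between Serpina1d and Serpina1a, was marked as not in the FANTOM5 collection, and was assigned to Serpina1a at a distance of 38770 bp. It overlaps the pseudogene Gm8893 and lies inside a long annotated isoform of Serpina1b, whereas the Serpina1b transcript in the table, at 103728156 to 103738158, does not reach it. The enhancer list holds no value per library, and the change of this element was not analysed here.

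Serpins of other clades are also made by the liver. Among 11 active ones, 6 fell and 2 rose in the gene body, with a median log2 fold change of -0.68, and in promoter-proximal windows none fell and 2 rose. Serpind1 (heparin cofactor II) fell by 1.35 ± 0.13, and Serpinf1 and Serpinf2 (alpha-2-antiplasmin) fell by 1.10 ± 0.15 and 1.10 ± 0.13. Serpinh1, a collagen chaperone gene of matrix-producing cells, rose by 1.21 ± 0.20 (adjusted p = 3.63e-05). Of the 5 active genes for proteases that these serpins inhibit, Klkb1 (plasma kallikrein) and Plg (plasminogen) fell in the gene body (-1.28 ± 0.14 and -1.18 ± 0.13), and none rose there. In promoter-proximal windows of these 5 genes none fell and 1 rose.

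Of 11 genes for liver factors known to act on Serpina1 transcription, 9 fell in the gene body and none rose, with a median of -1.18. Onecut1 fell by 2.06 ± 0.20, Hnf4a by 1.53 ± 0.11 and Foxa3 by 1.33 ± 0.12. In promoter-proximal windows 5 fell and 1 rose, the last being Nr1h4, the bile acid receptor gene. Hnf4a, a central hepatocyte transcription factor, held 17104 and 17557 gene body reads in WT and 5615 and 6374 in KO.

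Acute phase signalling genes, which act upstream of Serpina3n in inflammation, moved in both directions. Of 11, Il6ra, the interleukin 6 receptor subunit, fell by 1.20 ± 0.11 and Il1r1 by 0.70 ± 0.12 in the gene body. Osmr rose there by 0.94 ± 0.12. In the promoter-proximal window 6 of the 11 rose, against 25.8% of all active genes. Among 9 glucocorticoid genes, listed because Serpina6 carries their hormone, 5 fell and none rose in the gene body. They included Zbtb16 (-1.82 ± 0.11), Tat (-1.42 ± 0.12), Per1 (-0.96 ± 0.14) and Fkbp5 (-0.87 ± 0.11). Promoter-proximal calls in that list were 2 lower and none higher.

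Growth hormone genes also fell in the gene body, 5 of 9 with none higher. Ghr, the receptor, fell by 1.40 ± 0.11, Socs2 by 1.24 ± 0.14, Igf1 by 1.23 ± 0.13 and Cish by 1.03 ± 0.16. In this list 5 of the 9 pausing indices were called higher, against 11.2% of all active genes. Those calls depend on scaling. With each region scaled by its own median of ratios, 2 of the 12705 active genes had an index called higher. Of 9 genes for serpin secretion and quality control in the endoplasmic reticulum, such as Lman1 and Calr, none was called in the gene body (median -0.17).

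The 5 other active genes whose values over the 4 libraries and both regions lay nearest to the median profile of the 10 Serpina genes were Pck1, Sox9, Hnf4a, Fam160a1 and Fn1. Their root mean square distances from it were 0.0841 to 0.115 log2 units over 8 values, and the nearest Serpina gene, Serpina1a, was at 0.12. Pck1, the gluconeogenic enzyme gene, had log2 fold changes of -1.58 in the gene body and -1.39 in the promoter-proximal window.

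Hepatocyte markers moved with the 8 falling genes. Of 6, Apoa1, Tat, Cps1 and Alb fell in the gene body and none rose, with a median of -1.14. The summed marker density was 25346 to 27594 normalized reads per kb in WT and 11340 to 11538 in KO. All 6 stellate cell markers and 4 of 6 endothelial markers rose, with sums of 95.1 to 113 in WT against 267 to 285 in KO for the first, and 802 to 830 against 1293 to 1399 for the second. The gene body log2 fold changes were -1.76 for Apoa1, -1.42 for Tat, -1.40 for Cps1 and -0.89 for Alb, and the uncalled Cyp2e1 and Ttr were at -0.57 and -0.30. The Serpina1 genes, from -1.82 to -1.06, lay within or close to the range of these 6 markers, and Serpina3k, Serpina3m and Serpina3n lay below it.

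Other marker lists were mixed. Kupffer cell markers had no call among 5, with sums of 696 to 699 in WT and 741 to 885 in KO. Of 5 leukocyte markers 3 fell and 1 rose (128 to 147 against 85.5 to 104), of 5 active erythroid markers 3 fell and 1 rose (117 to 128 against 86.3 to 89.0), and of 3 active cholangiocyte markers 1 fell (27.8 to 38.1 against 26.9 to 28.6). No marker in the table was at 0 in any library. The part of cell makeup in the changes of the Serpina genes was not tested.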

How the data were processed

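PRO-seq reads of 2 WT and 2 Hdac3 KO liver libraries were trimmed with cutadapt and aligned to mm10 with Bowtie2 by the authors, who then removed poorly mapped and rRNA reads and summarised genes with NRSA, their own tool. The deposited table holds, for 20820 transcripts, the signal (reads scaled by total reads) of the 50 bp promoter-proximal window on the coding strand and of the gene body from 1 kb past the start, and their densities. In WT replicate 2 the scaling factor was 1, so its deposited values are counts. In the other libraries the authors' values divided by factors of 1.06 to 1.52 gave whole reads for 100% of values (tolerance 0.001). Whether gene body counting used strand is not given in the sources used here; B430119L08Rik is antisense to Serpina1c.

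Per symbol 1 transcript was kept, and active genes were fitted with limma 3.58.1 (trend, R 4.3.3) on log2(normalized reads + 1), KO minus WT, without a replicate block; the pausing index used the log2 ratio of both regions. edgeR 4.0.16 and DESeq2 1.42.0 on recovered reads, other pseudocounts (0.1 and 10), filters and scalings, a replicate block and leaving out each library were alternatives. Scripts were tested on simulated data. Positions are from GENCODE M21 and promoters from RefSeq (GRCm38.p6). The members, gene lists and tests were chosen with earlier results of these data known. Named genes are the 10 members, Hdac3, up to 4 called genes per list with the largest gene body change, the 5 nearest profiles and the markers; Serpina10, Nr1h4, Lman1, Calr, Dicer1 and Glrx5 were named beyond this rule, and 1 gene that the rule names is not reported here. SEs and p-values rest on the spread between pools only in part, since limma draws the variance of each gene towards that of genes of like level. For the gene body of Serpina1b, limma gave an SE of 0.11 and an adjusted p of 2.98e-08. Without the filter on activity it gave 0.028 and 0.0318.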

Additional observations from a re-analysis of the deposited data

How the results depend on the processing

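All 10 gene body changes kept their direction under the 17 alternatives, and the number called lower was 6 to 8. Without the filter on activity the gene body calls of Serpina1c (adjusted p = 0.0534), Serpina1e (0.0738) and Serpina6 (0.0574) were lost, leaving 1 called higher, and no promoter-proximal call remained for any gene (0 lower and 0 higher of the 10, and 0 over all genes, with 4179 higher and 427 lower at an unadjusted p under 0.05 in limma); this fit holds 20642 genes. DESeq2 called 1 of the 10 higher in promoter-proximal windows, since Serpina3g had an adjusted p of 0.0583. Leaving out single libraries gave 1 to 2 called higher there. For the pausing index, 1 gene (Serpina1e) was called higher with a pseudocount of 10, and 0 to 1 when single libraries were left out (Serpina3n without KO replicate 1). Index changes turned sign under median-of-ratios scaling for Serpina1a (-0.31), Serpina3k (-0.30), Serpina3g (-0.011) and Serpina6 (-0.53), under TMM for the same genes (-0.31, -0.30, -0.0092 and -0.53), for Serpina3g with a pseudocount of 10 (-0.25), and for Serpina3g (-0.13 to 1.28) and Serpina6 (-0.091 to 0.34) when single libraries were left out. The cause was not tested.

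Replicate numbers were taken only as names of the libraries, since the labels do not say whether WT and KO replicates were paired. Deviations of WT and KO replicate 1 had correlations of 0.019 in gene bodies and -0.11 in promoter-proximal windows. Such values cannot show whether libraries shared a batch. The replicate block gave 1325 higher and 1448 lower gene bodies and 1772 higher and 177 lower promoter-proximal windows over all active genes, and changed no call of the 10 genes. The crossed pairing, added after the data were seen, gave 4861 higher and 399 lower promoter-proximal windows. Counts over all genes tested moved by more than 1.5 times for gene bodies without the filter (406 higher and 589 lower of 20642) and without the fold threshold (2161 higher and 2807 lower of the active genes), for promoter-proximal windows under TMM (635 and 949), DESeq2 (180 lower) and single libraries left out (319 to 3522 higher, 83 to 182 lower), and for the pausing index (0 to 4576 higher, 0 to 131 lower). Few promoter-proximal reads limit Serpina3g and Serpina1e.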
